A study of Homo sapiens with 12 samples.

Results

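PTX3, NOG, CCN3 and METRNL encode proteins that cells release, and they were chosen because their transcripts were lower in U937 cells after all-trans retinoic acid (ATRA). PTX3 is a long pentraxin, a soluble pattern recognition molecule that binds microbes and complement components and that myeloid cells make on signals from Toll-like receptors, IL-1 and TNF through NF-kB. NOG encodes noggin, which binds bone morphogenetic proteins (BMPs) outside the cell and keeps them from their receptors. CCN3, formerly called NOV, is a matricellular protein that binds integrins and the receptor NOTCH1. METRNL encodes meteorin-like, a secreted cytokine of muscle, fat and macrophages for which KIT has been reported as a receptor. ATRA is a ligand of the retinoic acid receptors, which act as transcription factors and drive myeloid leukaemia cells toward differentiation.

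The members were the 4 genes of a list, out of 19775 genes to which the array annotation assigns a probe set of their own. A probe set reads a transcript with several short probes and reports their joint level. The members had 5 probe sets, 1 each for PTX3, NOG and METRNL and 2 for CCN3. Where a gene had several, the brightest on average served as its value. All 4 members passed the limit on low signal, log2 5 or more on 3 arrays or more, which left 14080 genes for testing. The values that chose the members were their differences between ATRA and DMSO, so those differences are described here with no test. The choice set no numerical threshold.

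Levels were measured in U937, an established human myeloid leukaemia line with monocytic features, on 12 Affymetrix arrays in 4 groups of 3 biological replicates. Vector DMSO cells had been transduced with an empty vector and received the solvent DMSO, and vector ATRA cells carried the same vector and received 1 µM ATRA. EVI1 DMSO and EVI1 ATRA cells had been transduced with a vector that expresses EVI1, a zinc finger transcription factor and myeloid oncogene encoded by the MECOM locus, and received the same agents. Treatment lasted 24 h in every group, so cells that were not transduced, other doses and other times were not measured. Whether the transduced lines were clones and which promoter drove EVI1 are not given in the sources used here. The series title concerns the effect of EVI1 on the response to ATRA.

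Replicate arrays correlated with r of 0.987 to 0.995 across probe sets, and the array medians lay between 5.29 and 5.35. Of 10 measured myeloid markers, 8 reached log2 5 on all arrays, among them PTPRC, SPI1, LYZ and CSF3R. MPO (4.8 to 5.97) and FCGR1A (3.21 to 3.8) did not. The same limit was reached on all arrays by 4 of 8 fibroblast, 3 of 6 T and NK and 3 of 5 B cell markers. It was also reached by 2 of 6 endothelial, 2 of 6 epithelial and 1 of 3 erythroid markers. Reaching this limit therefore does not by itself show the cell type. In EVI1 cells the monocyte and granulocyte receptor genes CSF1R and CSF3R rose with ATRA, by 0.62 ± 0.17 and 1.32 ± 0.26 (limma adjusted p = 0.0324 and 0.00658). They were 2 of 9 tested myeloid markers, 0 fell, and with the replicate number as a block 3 rose and 2 fell. Limma called 15.1% of all tested genes with ATRA in EVI1 cells. LYZ, ANPEP and CEBPA differed there by -0.45, -0.3 and -0.16 and were not called. Of the tested markers of fibroblasts, endothelium, epithelium, erythroid, T and NK and B cells, 1 was called with ATRA, the B cell gene CD79B in EVI1 cells (0.55 ± 0.13, limma adjusted p = 0.0184), while of the other B cell genes MS4A1 and CR2 read 2.69 to 4.77, CD79A 6.2 to 6.88 and PAX5 5.74 to 7.99 over all arrays. CD79B was also higher in EVI1 than in vector cells averaged over agents, by 0.62 ± 0.1 (limma adjusted p = 0.00185), as 1 of 3 tested B cell genes, and 2 of 3 were higher with the block. The part of these genes in the results was not tested. MECOM read 2.61 to 3.6 over its 5 probe sets on all arrays, so these probe sets do not check the EVI1 label. In bulk samples such as these, fewer cells that express a gene and less of its RNA per cell cannot be told apart.

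Promoter sequence was at hand for PTX3 and METRNL, and these stretches are shown because both transcripts were lower with ATRA while their upstream sequences differ in composition. Each line gives the 250 bases before the transcription start, from RefSeq on GRCh38.p14, plus strand. PTX3 spans chr3:157436600-157436849 and METRNL spans chr17:83080896-83081145. Capitals mark 2 overlapping matches to the NF-kB motif in PTX3 and 3 matches to the SP1 GC box GGGCGG in METRNL.
PTX3: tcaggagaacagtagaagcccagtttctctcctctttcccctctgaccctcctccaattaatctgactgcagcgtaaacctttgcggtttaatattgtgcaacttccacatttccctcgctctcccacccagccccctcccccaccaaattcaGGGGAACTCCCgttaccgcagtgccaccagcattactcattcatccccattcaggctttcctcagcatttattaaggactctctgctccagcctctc
METRNL: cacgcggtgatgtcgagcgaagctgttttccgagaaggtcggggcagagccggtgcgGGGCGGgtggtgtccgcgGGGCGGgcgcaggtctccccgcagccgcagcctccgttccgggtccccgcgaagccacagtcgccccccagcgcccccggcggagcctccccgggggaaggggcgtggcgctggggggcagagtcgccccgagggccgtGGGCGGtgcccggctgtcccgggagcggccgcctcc

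The PTX3 stretch was 51.6% G and C with 5 CpG dinucleotides, and 35.3% of 35116 promoters of the same length had a lower G and C content. The METRNL stretch was 78.4% G and C with 34 CpG, and 94.8% of the promoters lay below it. The promoters were searched on both strands for 7 motifs. The NF-kB motif matched the PTX3 stretch at first bases -97 and -96 from the start, and 5.21% of all promoters held a match. The GC box matched METRNL at -193, -175 and -36, and 42.6% of all promoters held it. The other motifs had no match in either window: AGGTCA, the core bound by retinoic acid receptors (12.1% of all promoters), GACAAGATA of EVI1 (0.0854%), TGANTCA of AP-1 (6.57%), CACGTG of MYC (6.34%) and the TATA box TATAAA (10.7%). A match is a description of letters in this window and shows no binding.

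PTX3 was the member with the widest range. In vector DMSO cells its log2 signal was 6.02, 6.25 and 5.76 on the arrays of numbers 1, 2 and 3, and in vector ATRA cells it was 3.97, 4.02 and 3.97. In EVI1 DMSO cells it was 6.15, 6.68 and 5.41, and in EVI1 ATRA cells 3.23, 3.34 and 2.81. Every ATRA array was below every DMSO array, and every EVI1 ATRA array was below every vector ATRA array, whereas the DMSO groups overlapped. The group means were 6.01 ± 0.25 and 3.99 ± 0.03 in vector cells and 6.08 ± 0.64 and 3.13 ± 0.28 in EVI1 cells (SD, n = 3 each). The PTX3 signal was lower with ATRA by -2.02 ± 0.26 in vector cells and -2.95 ± 0.26 in EVI1 cells (log2, ± SE). The lower quartiles of all probe sets were 3.83 to 3.91 on the 12 arrays, so the vector ATRA signals lay just above them and the EVI1 ATRA signals below them. All 6 ATRA arrays were under the log2 5 limit, and PTX3 passed it through its DMSO arrays. No fold is therefore given for PTX3, and the difference between its ATRA groups is one between signals that may both be background.

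NOG, the BMP antagonist, read 6.56, 6.51 and 6.35 in vector DMSO cells and 5.18, 4.68 and 5.37 in vector ATRA cells. In EVI1 cells it read 6.67, 6.84 and 6.38 with DMSO and 4.48, 4.37 and 4.31 with ATRA. The order was that of PTX3: the DMSO groups overlapped, vector ATRA was lower, and EVI1 ATRA was lower again without overlap. The means were 6.47 ± 0.11, 5.08 ± 0.36, 6.63 ± 0.23 and 4.39 ± 0.09 in vector cells with DMSO and ATRA and EVI1 cells with DMSO and ATRA (SD, n = 3 each). The ATRA level was 2.63-fold lower than the DMSO level in vector cells (2.04 to 3.4) and 4.73-fold lower in EVI1 cells (3.67 to 6.11). All 3 EVI1 ATRA arrays and vector ATRA number 2 were under the log2 5 limit, so these folds describe the signal.

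CCN3, the matricellular protein, was well above the array medians in every group. Its main probe set read 9.57, 9.78 and 9.10 in vector DMSO cells and 7.42, 7.68 and 7.55 in vector ATRA cells. In EVI1 cells it read 9.88, 10.13 and 9.43 with DMSO and 7.78, 8.06 and 7.39 with ATRA. Here the groups separated by agent alone, and vector and EVI1 cells overlapped under both agents. The means were 9.48 ± 0.35 and 7.55 ± 0.13 in vector cells and 9.81 ± 0.35 and 7.74 ± 0.34 in EVI1 cells (SD, n = 3 each). CCN3 was 3.82-fold lower with ATRA in vector cells (2.74 to 5.33) and 4.2-fold lower in EVI1 cells (3.01 to 5.86).

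The second CCN3 probe set gave the same order of groups. Its group means were 8.17 ± 0.26, 6.59 ± 0.1, 8.46 ± 0.33 and 6.71 ± 0.37 in vector cells with DMSO and ATRA and EVI1 cells with DMSO and ATRA (SD, n = 3 each). Its ATRA differences were -1.58 ± 0.21 in vector cells and -1.75 ± 0.21 in EVI1 cells (log2, ± SE), against -1.93 ± 0.22 and -2.07 ± 0.22 on the main probe set. Both probe sets separated the arrays by agent.

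METRNL, the meteorin-like cytokine, had the smallest ATRA difference of the members in each cell type. It read 8.49, 8.31 and 8.34 in vector DMSO cells and 7.22, 7.23 and 7.18 in vector ATRA cells. In EVI1 cells it read 8.67, 8.74 and 8.42 with DMSO and 6.89, 7.45 and 6.97 with ATRA. All ATRA arrays were below all DMSO arrays, and EVI1 ATRA number 2 was above every vector ATRA array while numbers 1 and 3 were below them. The means were 8.38 ± 0.1 and 7.21 ± 0.03 in vector cells and 8.61 ± 0.17 and 7.1 ± 0.3 in EVI1 cells (SD, n = 3 each). METRNL was 2.25-fold lower with ATRA in vector cells (1.81 to 2.8) and 2.84-fold lower in EVI1 cells (2.29 to 3.53).

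**Figure D1:**
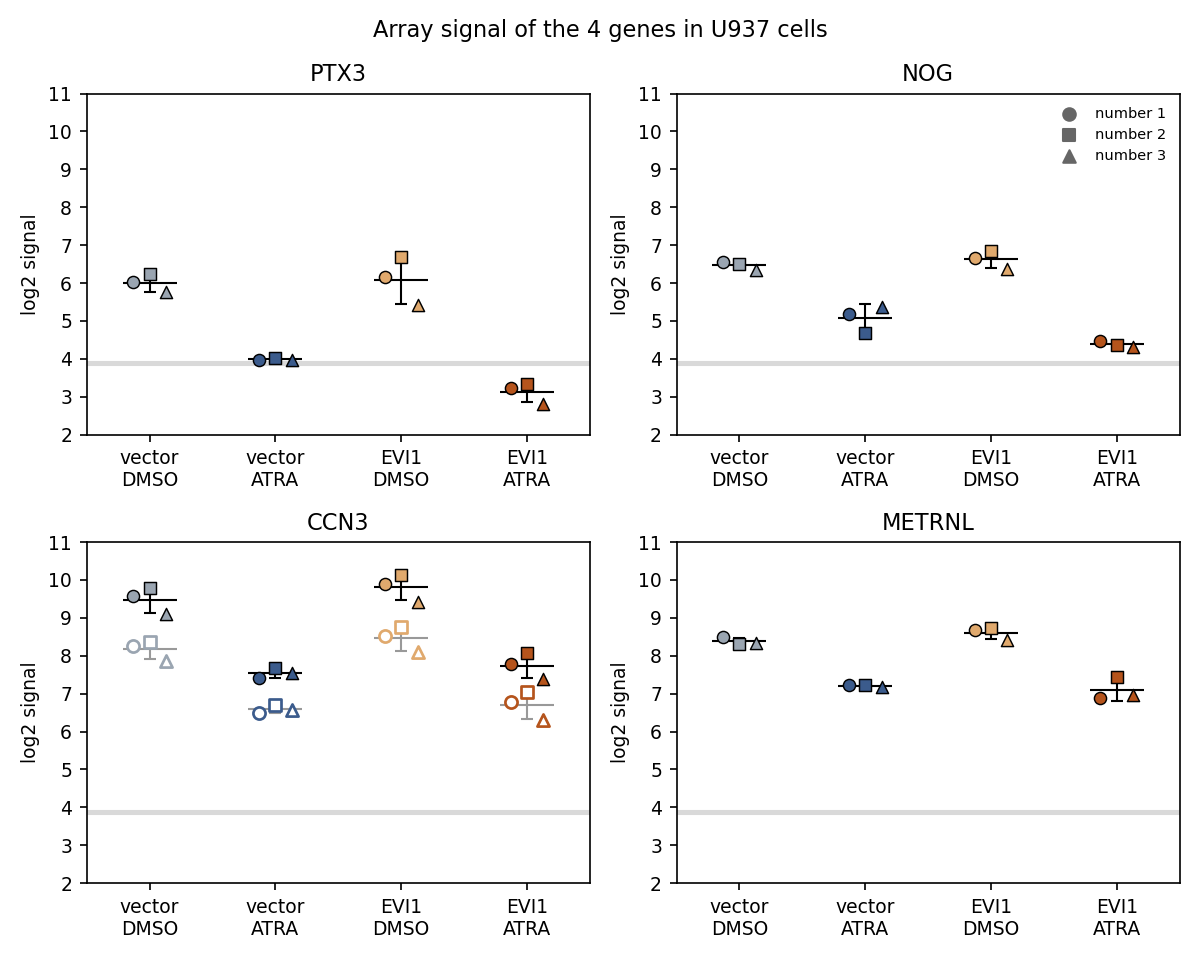
The log2 signal of each member is plotted for the 12 arrays by group, with a marker shape per replicate number, the mean ± SD of 3 arrays, the array lower quartiles as a grey band and the second CCN3 probe set as open markers. In every panel the ATRA arrays lie below the DMSO arrays, and the EVI1 ATRA arrays lie below the vector ATRA arrays for PTX3 and NOG.

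Group means were compared with limma, which fits a linear model to each gene and moderates its variance, with Benjamini-Hochberg adjustment across the 14080 genes and calls at an adjusted p under 0.05. All 4 members were among the genes called lower with ATRA in both cell types, and since these differences chose them, nothing is read from that count. In vector cells limma called 3.52% of tested genes, 1.52% lower, and in EVI1 cells 15.1%, 7.66% lower, and 1.35% were called lower in both. By size of fall among the tested genes, PTX3 ranked 2, CCN3 ranked 5, NOG ranked 15 and METRNL ranked 28 in vector cells. In EVI1 cells PTX3 ranked 1, NOG ranked 5, CCN3 ranked 6 and METRNL ranked 23, where the PTX3 and NOG ranks rest on ATRA signals under the log2 5 limit. The groups of all 4 members did not overlap, beside 11.4% of tested genes whose ATRA group was lower without overlap in vector cells and 14.5% in EVI1 cells.

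The replicate numbers of the titles paired the arrays, so each ATRA array can be set against the DMSO array of the same number. The PTX3 differences were -2.05, -2.23 and -1.79 in vector cells and -2.92, -3.34 and -2.6 in EVI1 cells for numbers 1, 2 and 3 (log2). The NOG differences were -1.38, -1.83 and -0.98 in vector cells and -2.19, -2.47 and -2.07 in EVI1 cells. For both genes the difference was larger in EVI1 cells at each of the 3 numbers and did not overlap between cell types. CCN3 differed by -2.15, -2.1 and -1.55 in vector cells and by -2.1, -2.07 and -2.04 in EVI1 cells, which overlapped. METRNL differed by -1.27, -1.08 and -1.16 in vector cells and by -1.78, -1.29 and -1.45 in EVI1 cells. The METRNL differences were also larger in EVI1 cells at each number, by least at number 2, and did not overlap either. How many of all tested genes share this order was not counted, so nothing is read from it.

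**Figure D2:**
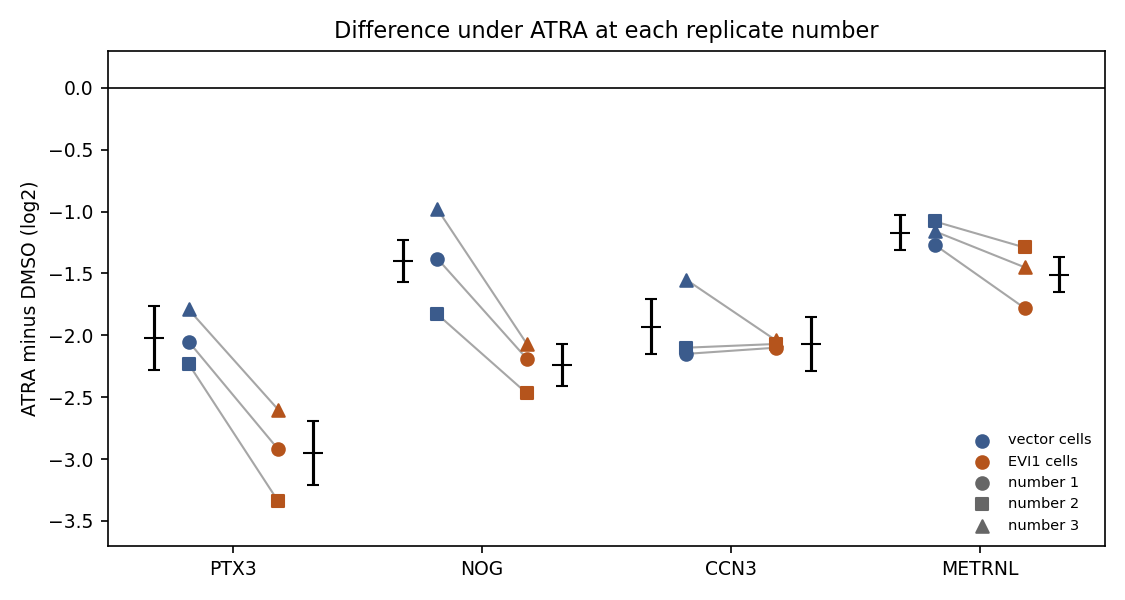
The ATRA minus DMSO difference of each member on the log2 scale is plotted for each replicate number in vector (blue) and EVI1 (orange) cells, with lines joining the same number and black marks for the fitted mean ± SE. All lines for PTX3, NOG and METRNL go down from vector to EVI1 cells, whereas those for CCN3 do not share a direction.

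The interaction, the ATRA difference in EVI1 cells minus that in vector cells, was -0.93 ± 0.37 for PTX3 (95% interval -1.73 to -0.13) and -0.85 ± 0.24 for NOG (-1.37 to -0.32). It was -0.34 ± 0.2 for METRNL (-0.78 to 0.11) and -0.14 ± 0.31 for CCN3 (-0.82 to 0.54). All 4 members had a limma adjusted p of 0.998 (0.346 to 0.748 with the replicate block), so none passed. The comparison called 0 of 14080 genes (0.0%). At an unadjusted limma p under 0.05 it held 362 genes (2.57%), among them PTX3 and NOG. These values are not independent of a choice made on the ATRA differences, and those of PTX3 and NOG include ATRA signals under the log2 5 limit. The CCN3 value changed sign without vector DMSO number 3 (0.05), without EVI1 DMSO number 2 (0.02) and without EVI1 ATRA number 3 (0.04).

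EVI1 cells were compared with vector cells averaged over both agents, a contrast that is orthogonal to both ATRA differences. The members were chosen with earlier results of these data known, so an influence of that choice on this contrast is not excluded. Limma called 0 of the 4 members, beside 9.69% of tested genes, and at an unadjusted p under 0.05 it held 1 member, NOG, beside 23.6% of tested genes. PTX3 was lower in EVI1 cells by -0.4 ± 0.18 (95% interval -0.8 to 0.01, limma adjusted p = 0.219) and NOG by -0.27 ± 0.12 (-0.53 to -0.01, limma adjusted p = 0.202). CCN3 differed by 0.26 ± 0.16 (-0.08 to 0.6, limma adjusted p = 0.354) and METRNL by 0.06 ± 0.1 (-0.16 to 0.28, limma adjusted p = 0.784). With the replicate number as a block the differences kept their values, and PTX3 (limma adjusted p = 0.034, lower) and CCN3 (0.0393, higher) passed, while NOG (0.115) and METRNL (0.64) did not. The averaged PTX3 value comes from its ATRA arrays (-0.86, against 0.07 under DMSO), whose signals may be background. The PTX3 pass therefore shows no difference in expression by itself. The NOG value also includes ATRA signals under the log2 5 limit. The block raised the count of called genes in this contrast from 1365 to 4033. The METRNL difference was -0.02 without EVI1 ATRA number 2.

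Under DMSO alone, the members were close in EVI1 and vector cells. The differences were 0.07 ± 0.26 for PTX3 (95% interval -0.5 to 0.64), 0.16 ± 0.17 for NOG (-0.21 to 0.53), 0.33 ± 0.22 for CCN3 (-0.15 to 0.81) and 0.23 ± 0.14 for METRNL (-0.08 to 0.54). Their limma adjusted p-values ran from 0.726 to 0.984, and 0 of 4 members were called, beside 1.21% of tested genes. At an unadjusted p under 0.05 limma without the replicate block held 0 members, beside 9.79%. With the block the limma adjusted p ran from 0.131 for CCN3 to 0.861 for PTX3, so 0 were called. The unadjusted limma p of CCN3 was 0.0182 with the block. The groups of all 4 overlapped, whereas 6.35% of tested genes were lower and 8.23% higher in EVI1 cells without overlap. CCN3 was higher in EVI1 cells by 0.31, 0.35 and 0.33 at numbers 1, 2 and 3, and PTX3 differed by 0.13, 0.43 and -0.35. CCN3 thus differed by nearly the same amount at each number, whereas PTX3 changed sign at number 3. The PTX3 difference was -0.05 without vector DMSO number 3 and -0.23 without EVI1 DMSO number 2.

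Under ATRA alone, NOG was lower in EVI1 cells by -0.69 ± 0.17 (95% interval -1.06 to -0.32, limma adjusted p = 0.0363), or 1.61-fold, and was the only member of the 4 called, beside 5.61% of tested genes. PTX3 was lower by -0.86 ± 0.26 (-1.43 to -0.29, limma adjusted p = 0.0779), which missed the threshold, and passed with the replicate block (0.00604). Both PTX3 groups were under the log2 5 limit here, so the PTX3 value shows no difference in expression by itself. The EVI1 arrays of NOG and its vector number 2 (4.68) were under it too, so the NOG difference and fold describe the signal. For both genes the groups did not overlap, as for 9.03% of tested genes that were lower in EVI1 cells. CCN3 differed by 0.19 ± 0.22 (-0.29 to 0.67, limma adjusted p = 0.692) and METRNL by -0.11 ± 0.14 (-0.42 to 0.21, limma adjusted p = 0.747), and their groups overlapped. This comparison shares the ATRA arrays with the differences that chose the members.

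The NOG call under ATRA was lost in 6 of the 12 fits that left out 1 array. The limma adjusted p was 0.0531 without vector DMSO number 1, 0.0549 without vector DMSO number 2, 0.115 without vector ATRA number 1, 0.135 without vector ATRA number 3, 0.103 without EVI1 ATRA number 2 and 0.136 without EVI1 ATRA number 3. The NOG difference stayed between -0.89 and -0.54 in these 12 fits, so its direction held in each. PTX3 under ATRA passed without EVI1 DMSO number 2 (limma adjusted p = 0.0377) and without EVI1 DMSO number 3 (0.0218), with its difference between -0.97 and -0.7 over the 12 fits. A fit on the ATRA arrays alone reversed the roles, with limma adjusted p = 0.103 for NOG and 0.0416 for PTX3.

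**Figure D3:**
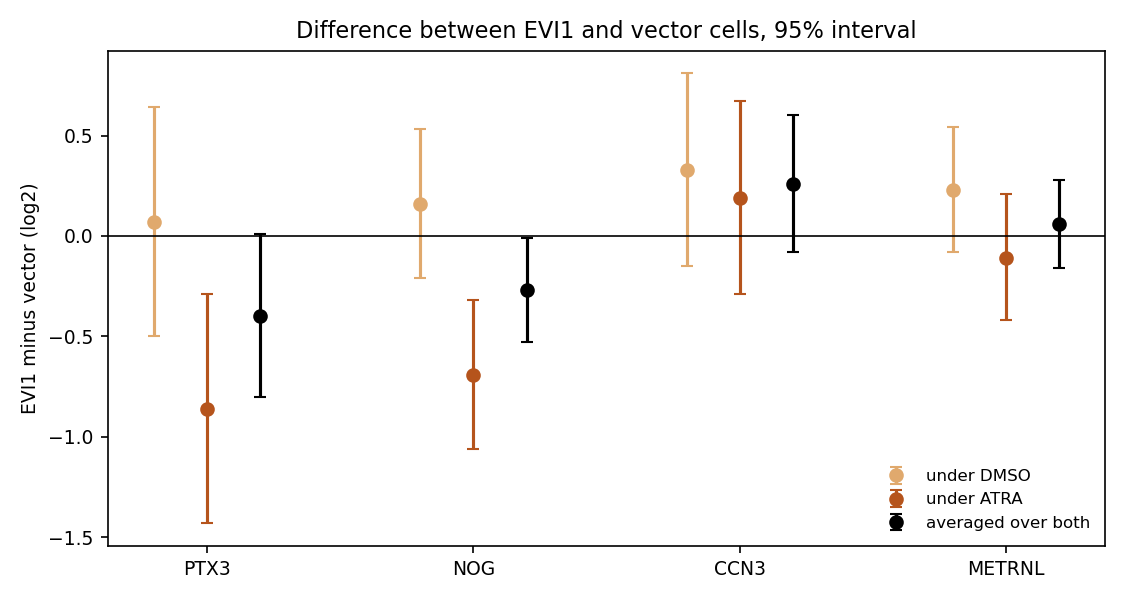
The EVI1 minus vector difference on the log2 scale is plotted for each member under DMSO, under ATRA and averaged over both agents, as the fitted value with its 95% interval. The DMSO intervals of all 4 members span 0, and those under ATRA lie below 0 for PTX3 and NOG.

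In levels across the 12 arrays the members ran closely together, as their choice on a shared ATRA difference requires. The Pearson r of log2 signals was 0.978 for PTX3 and NOG, 0.973 for CCN3 and METRNL and lowest, 0.916, for NOG and CCN3 (description over 12 arrays in 4 groups, with no test). After each array's group mean was removed, r over the same 12 arrays was 0.891 for PTX3 and CCN3, 0.615 for CCN3 and METRNL, 0.561 for PTX3 and METRNL and 0.525 for PTX3 and NOG. NOG stood furthest apart, with r of 0.347 with CCN3 and 0.179 with METRNL. The deviations share the replicate numbers and the normalisation of the arrays.

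On the DMSO arrays of number 3, all 4 members were below the mean of numbers 1 and 2. In vector DMSO cells number 3 differed from that mean by -0.38 for PTX3, -0.19 for NOG, -0.58 for CCN3 and -0.06 for METRNL. In EVI1 DMSO cells it differed by -1.0, -0.38, -0.58 and -0.29 in the same order. The members thus read nearer to their ATRA levels on these arrays, most of all PTX3 in EVI1 cells. Among the 186 other genes called lower with ATRA in both cell types, the median of this difference was -0.04 in vector cells, with 55.9% of genes below 0, and -0.13 in EVI1 cells, with 81.7% below 0. Over all other tested genes the medians were 0.0, with 50.4% below 0, and -0.03, with 54.4% below 0. Number 3 was also the lowest EVI1 ATRA array for PTX3, NOG and CCN3, at -0.32, -0.08 and -0.35 from the group mean, but in vector ATRA cells it was the highest for NOG, at 0.29. What set number 3 apart was not tested.

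**Figure D4:**
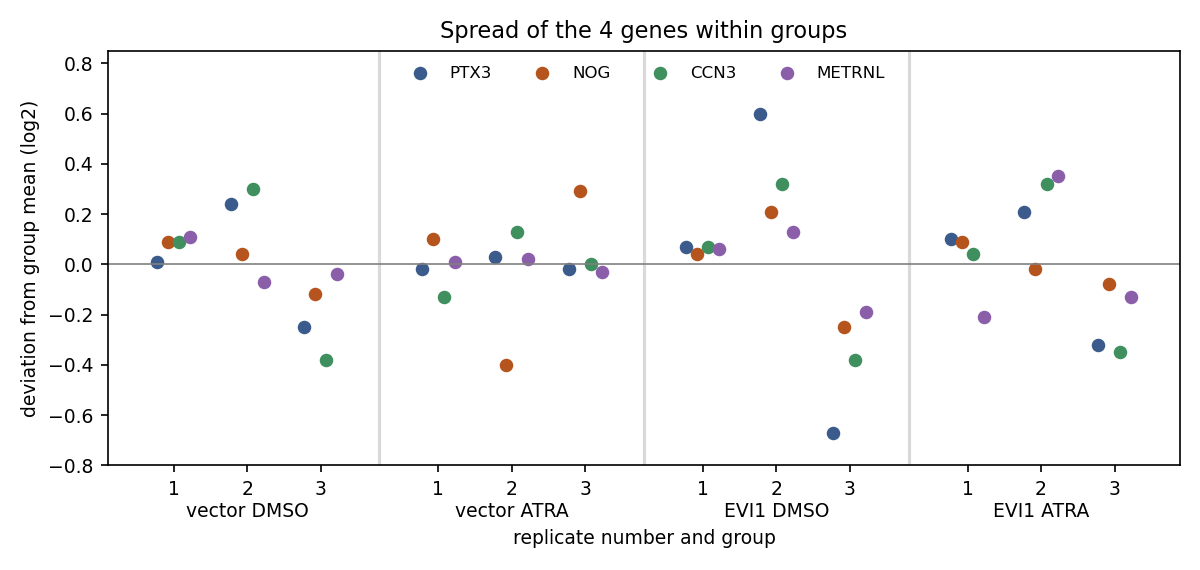
Each member's deviation from its group mean on the log2 scale is plotted for the 12 arrays, grouped by treatment and cell type. The arrays of number 3 are lowest in both DMSO groups for all 4 members except METRNL in vector cells.

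By the highest Pearson r of log2 signal over the 12 arrays, the genes nearest to PTX3 were PRKRA (0.984), an activator of the kinase PKR, TMEM231 (0.983), a protein of the ciliary transition zone, and TENT4B (0.982), a non-canonical poly(A) polymerase. Nearest to NOG were the exporter gene ABCC4 (0.983), the hexokinase gene HK2 (0.982) and PTX3 itself (0.978). Nearest to CCN3 were JAG1 (0.976), which encodes a NOTCH ligand, METRNL (0.973) and NDUFB9 (0.971), a subunit of respiratory complex I. Nearest to METRNL were the kinase gene PIM2 (0.977), SCAMP1 (0.974), which encodes a secretory carrier membrane protein, and JAG1 (0.974). HK2 was lowest in EVI1 ATRA cells and next lowest in vector ATRA cells, as NOG was. Its means were 10.82 ± 0.12, 9.95 ± 0.17, 10.75 ± 0.16 and 9.59 ± 0.14 in vector cells with DMSO and ATRA and EVI1 cells with DMSO and ATRA (SD, n = 3 each). Its DMSO means were in the opposite order to those of NOG. JAG1 separated by agent as CCN3 did, but was lower in EVI1 ATRA than in vector ATRA cells where CCN3 was higher, with means of 8.48 ± 0.1, 7.37 ± 0.09, 8.52 ± 0.31 and 7.28 ± 0.21. These are the top values among 14080 genes and are given as a description.

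The pathway of NOG was read from lists of its relatives, ligands, receptors and targets. Among other secreted BMP antagonists, 7 of 16 were tested, and limma called 0 in either direction in both cell types, with median ATRA differences of 0.07 in vector and -0.02 in EVI1 cells. In each cell type 1 of the 7 had an unadjusted p under 0.05 and 1 rose with the block. The medians over all tested genes were 0.0 and -0.02, and limma called 3.52% and 15.1% of them. Of 7 tested BMP ligands, BMP8B alone fell in both cell types, by -0.74 ± 0.15 in vector (limma adjusted p = 0.0231) and -0.96 ± 0.15 in EVI1 cells (limma adjusted p = 0.0024). With the block 1 ligand rose in each cell type. The vector call of BMP8B was kept in 7 of 12 fits without 1 array and the EVI1 call in 12 of 12. Among 9 tested BMP receptors and SMADs limma called 0 for ATRA, with 0 in vector and 1 in EVI1 cells at an unadjusted p under 0.05, and with the replicate block 3 rose in EVI1 cells. BMPR2, the type II BMP receptor, differed by 0.08 ± 0.27 in vector and 0.5 ± 0.27 in EVI1 cells (limma adjusted p = 0.934 and 0.262, the latter 0.0312 with the block).

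Of the BMP target genes, ID1, an inhibitor of helix-loop-helix factors, changed most. Its log2 signal was 8.76 ± 0.28 with DMSO and 10.83 ± 0.59 with ATRA in vector cells (SD, n = 3 each), a rise of 2.07 ± 0.32 (limma adjusted p = 0.00771). In EVI1 cells it went from 7.73 ± 0.67 to 10.87 ± 0.06, a rise of 3.14 ± 0.32 (limma adjusted p = 0.000465), and both calls held without any 1 array. ID2, a relative of ID1, rose by 0.47 ± 0.11 in vector cells (limma adjusted p = 0.0383) in a call kept in 4 of 12 such fits. The ID2 call was also lost with the mean of all probe sets, in a fit on the vector arrays alone and without both DMSO arrays of number 3. Of the 8 tested BMP targets, 2 rose in vector cells and 1 in EVI1 cells, and 0 fell. Limma called 3.52% and 15.1% of all tested genes there.

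Around PTX3, 1 of 10 tested genes of pentraxins and other soluble pattern recognition and complement factors rose in each cell type and 0 fell. Limma called 3.52% of all tested genes in vector and 15.1% in EVI1 cells. With the block 1 of the 10 fell in each cell type, 1 rose in vector cells and 2 rose in EVI1 cells. The gene that rose without the block was CFP, which encodes the complement regulator properdin, with a rise of 2.49 ± 0.44 in vector cells (limma adjusted p = 0.0138, kept in 8 of 12 fits without 1 array) and 2.86 ± 0.44 in EVI1 cells (limma adjusted p = 0.00232, kept in 12 of 12). Another list held 16 tested genes of the Toll-like receptor, IL-1, TNF and NF-kB pathways that induce PTX3. It includes NFKBIA and TNFAIP3, which restrain NF-kB and are not inducers. Limma called 0 of the 16 in vector cells (2 at an unadjusted p under 0.05), where 3.52% of all tested genes were called. In EVI1 cells 4 rose, where 15.1% of all tested genes were called. With the replicate block 3 rose and 1 fell in vector cells, and 5 rose and 3 fell in EVI1 cells. NFKBIA differed by -0.64 ± 0.21 in EVI1 cells (limma adjusted p = 0.0561, with the block 0.000883). The cytokine gene IL1B rose by 1.29 ± 0.3 (limma adjusted p = 0.0149) and TNFAIP3, an NF-kB target that restrains the pathway, by 0.53 ± 0.12 (limma adjusted p = 0.0107). The adaptors MYD88 and TRAF6 rose by 0.47 ± 0.12 and 0.36 ± 0.11 (limma adjusted p = 0.0202 and 0.0435). The TNFAIP3 call was kept in 12 of 12 fits without 1 array, IL1B and MYD88 in 9, and TRAF6 in 0.

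The inducers fixed by name showed no call. TLR4, the lipopolysaccharide receptor, differed by 0.46 ± 0.25 in vector and 0.51 ± 0.25 in EVI1 cells (limma adjusted p = 0.385 and 0.21). NFKB1, which encodes a subunit of NF-kB, differed by -0.08 ± 0.11 and -0.2 ± 0.11 (limma adjusted p = 0.795 and 0.287, the latter 0.0491 with the block).

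Of 5 other genes of the CCN family, 2 were tested, limma called 0, and 0 had an unadjusted p under 0.05. CCN1, a matricellular relative, differed by -0.04 ± 0.16 in vector and 0.19 ± 0.16 in EVI1 cells (limma adjusted p = 0.946 and 0.485). CCN2, the connective tissue growth factor gene, read 2.86 to 3.52 on all arrays and was not tested. A list of Notch receptors, integrins and other CCN3 partners also held the Notch target HES1. Of its 10 tested genes, 1 rose in vector cells, 3 rose in EVI1 cells and 0 fell. Limma called 3.52% and 15.1% of all tested genes in these 2 comparisons. With the replicate block 5 rose and 1 fell in vector cells, and 4 rose and 0 fell in EVI1 cells. The block called 2818 and 5023 of all 14080 genes. The receptor gene NOTCH2 rose by 0.58 ± 0.14 in vector cells (limma adjusted p = 0.0467, kept in 4 of 12 fits without 1 array) and by 1.04 ± 0.14 in EVI1 cells (0.00143, kept in 12 of 12). Its call in vector cells was also lost with the mean of all probe sets. The integrin genes ITGA6 and ITGB5 rose in EVI1 cells by 2.31 ± 0.5 and 0.66 ± 0.14 (limma adjusted p = 0.011 and 0.00984, both kept in 12 of 12).

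Averaged over agents, 3 of the 10 tested genes on the CCN3 partner list were higher in EVI1 than in vector cells, and 6 with the block. Limma called 1365 (9.69%) and 4033 of all 14080 genes there in either direction. The 3 genes were NOTCH1, by 0.52 ± 0.08 (limma adjusted p = 0.00218), NOTCH2, by 0.42 ± 0.1 (0.0229), and the Notch target HES1, by 0.6 ± 0.13 (0.0127), all named after their values were seen. The NOTCH2 call was kept in 7 of 12 fits without 1 array and the others in 12 of 12. HES1 means were 4.68 and 4.22 in vector cells and 5.19 and 4.9 in EVI1 cells with DMSO and ATRA. Only the EVI1 DMSO mean reached the log2 5 limit, so the HES1 difference may be one between background signals. The HES1 call was also lost without both DMSO arrays of number 3.

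METRNL has METRN, the neurotrophic factor meteorin, as its relative. METRN differed by -0.07 ± 0.12 with ATRA in vector cells (limma adjusted p = 0.856) and fell by -0.62 ± 0.12 in EVI1 cells (0.00666, kept in 12 of 12 fits without 1 array). METRN was higher in EVI1 than in vector cells under DMSO, by 0.63 ± 0.12 (limma adjusted p = 0.0249, kept in 7 of 12), and its ATRA levels, 7.98 ± 0.16 and 8.06 ± 0.17 (SD, n = 3 each), were close. The METRN call under DMSO was also lost with the mean of all probe sets and in a fit on the DMSO arrays alone. It was lost without both DMSO arrays of number 3 as well. KIT, the reported METRNL receptor, rose by 0.83 ± 0.17 in vector cells (limma adjusted p = 0.0238, kept in 7 of 12) and by 0.55 ± 0.17 in EVI1 cells (0.0449, kept in 4 of 12). METRNL and KIT differed in opposite directions with ATRA.

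A list of 50 other cytokines, growth factors and secreted regulators served as the wider setting for the members. Of its 42 tested genes, 2 rose and 1 fell in vector cells and 7 rose and 3 fell in EVI1 cells, with median ATRA differences of 0.0 and 0.06, beside 3.52% and 15.1% of all tested genes called. With the replicate block 7 rose and 6 fell in vector cells, and 10 rose and 5 fell in EVI1 cells. VEGFA, the angiogenic growth factor, fell in both, by -0.86 ± 0.14 in vector (limma adjusted p = 0.0111, kept in 9 of 12 fits without 1 array) and -0.93 ± 0.14 in EVI1 cells (0.00247, kept in 12 of 12). HBEGF, a ligand of the EGF receptor, rose by 2.33 ± 0.35 and 2.9 ± 0.35 (limma adjusted p = 0.00686 and 0.000977, kept in 12 of 12). CFD, the complement protease factor D, rose by 1.28 ± 0.31 and 1.18 ± 0.31 (limma adjusted p = 0.0473 and 0.0268, kept in 5 and 8 of 12).

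In EVI1 cells the stress cytokine gene GDF15 rose by 3.93 ± 1.13 (limma adjusted p = 0.0368, kept in 6 of 12 fits without 1 array) and the progranulin gene GRN by 1.37 ± 0.33 (0.0167, kept in 8 of 12). The other falls in EVI1 cells, named after their values were seen, were PDGFA by -0.73 ± 0.16 and HGF by -1.17 ± 0.3 (limma adjusted p = 0.0121 and 0.0221).

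**Figure D5:**
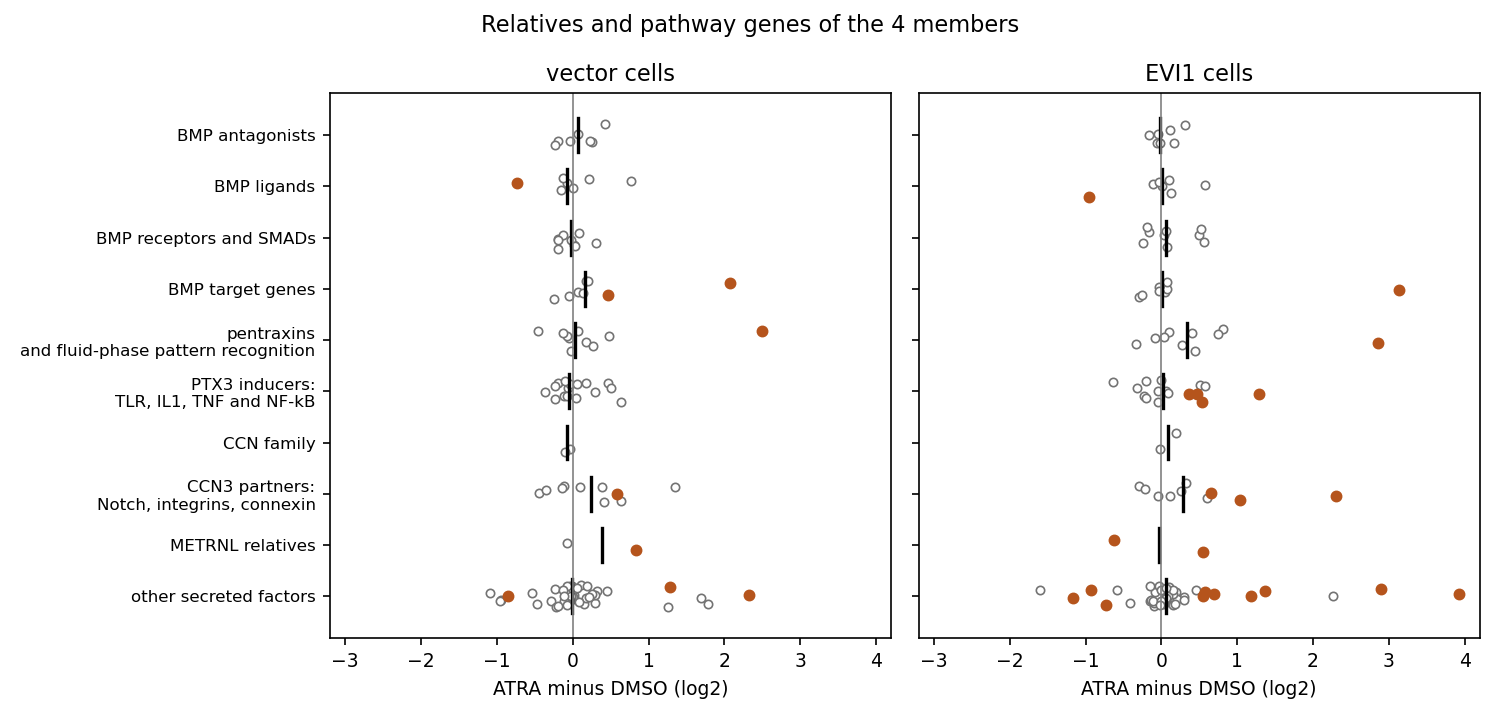
The ATRA minus DMSO difference on the log2 scale is plotted for each tested gene of the 10 pathway and secreted factor lists in vector and EVI1 cells, with filled markers for called genes and a bar at the list median. The list medians lie between -0.07 and 0.38 in vector cells and between -0.03 and 0.34 in EVI1 cells.

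The members lie apart from each other in the genome, with NOG and METRNL both on chromosome 17 but with other neighbours (RefSeq, GRCh38.p14, names only). PTX3 on chromosome 3 lies within the span of VEPH1, which read 4.26 to 5.1 and was not tested, and is followed by the homeobox gene SHOX2. SHOX2 differed by 0.68 ± 0.21 with ATRA in both cell types, with limma adjusted p = 0.105 in vector cells (0.00319 with the block) and 0.047 in EVI1 cells, the opposite direction to PTX3. Beside NOG, ANKFN1 differed by 0.12 ± 0.16 and -0.07 ± 0.16 (limma adjusted p = 0.798 and 0.85) and C17orf67 by 0.28 ± 0.22 and -0.01 ± 0.22 (0.576 and 0.983, the former 0.0411 with the block). The neighbours of CCN3 on chromosome 8 were low, MAL2 at 2.68 to 2.98 and ENPP2 at 4.09 to 4.76, and were not tested. METRNL is the last gene of its chromosome, and its other neighbour has no probe set of its own. Limma called a fall with ATRA in 0 of the 3 tested neighbours, beside 1.52% of all tested genes in vector and 7.66% in EVI1 cells. With 3 genes this count does not set the neighbours apart from other genes.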

How the data were processed

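RNA was labelled from 250 ng of total RNA per sample and hybridised to 12 arrays, 4 groups of 3. The submitters' processing notes name RMA and Affymetrix Expression Console 1.3, without settings, and the deposited values are log2 signals that the authors made with them. RMA corrects background, normalises arrays to each other and can compress differences at low signal. Of 54675 probe sets, 41097 carried exactly 1 gene symbol and were used, 1801 carried several and 11777 were not listed. The number of arrays limits the precision.

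With limma 3.58.1 (R 4.3.3), group means were estimated from all 12 arrays together, leaving 8 residual degrees of freedom, for 6 comparisons. ± values are SE for differences and SD for levels. Tested on simulated data for ATRA in EVI1 cells (14080 genes), the fit recovered 81 of 100 genes changed by 1 and 95 of 100 changed by 2. The simulated arrays varied independently, without the shared replicate numbers of the real arrays, and only EVI1 ATRA values were changed. Recovery in the real data may therefore differ. The members, lists and named genes were chosen with earlier results of these data known. Named were the members, the 3 genes most correlated with each, up to 4 called genes per list and ATRA comparison with the largest difference, 8 pathway genes and the genomic neighbours. After removal of group means, the 18 pairs of arrays with the same number in their titles correlated with r of 0.408 to 0.704, and other pairs with -0.56 to 0.164, so the number was also fitted as a block. The alternatives were other filters, scalings, probe set rules, variance priors and sample sets. No array was left out of the fits reported first, and CCN3 promoter, NOG promoter and protein sequences were not used here.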

Additional observations from a re-analysis of the deposited data

Results flagged for a closer look

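For NOG the difference between EVI1 and vector cells was positive under DMSO at every replicate number (0.11, 0.33 and 0.03) and negative under ATRA (-0.7, -0.31 and -1.06), which gave an interaction of -0.85 ± 0.24 (limma adjusted p = 0.998, with the block 0.346). ID2 showed the same turn of sign, with 0.19, 0.29 and 0.41 under DMSO and -0.05, -0.12 and -0.2 under ATRA, an interaction of -0.42 ± 0.16 (limma adjusted p = 0.998, with the block 0.346). TMEM231, a gene close to PTX3 in pattern, had 0.02, 0.13 and 0.04 under DMSO and -0.25, -0.42 and -0.4 under ATRA, an interaction of -0.42 ± 0.13 (limma adjusted p = 0.998, with the block 0.346). None of these interactions passed the adjusted test.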

How the results depend on the processing

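With the replicate block PTX3 passed averaged over agents (-0.4) and under ATRA (-0.86), where its signals may be background. CCN3 passed averaged (0.26), and the block changed no other call of a member. Fits on the groups compared alone passed PTX3 under ATRA (-0.86) and lost NOG there (-0.69). Leaving out both DMSO arrays of number 3, chosen after the data were seen, passed PTX3 under ATRA (-0.86) and turned METRN in vector cells from -0.07 to 0.0.

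Counts of called genes moved more. The block gave 2818 for ATRA in vector cells, 5023 for ATRA in EVI1 cells, and for EVI1 against vector 4033 averaged, 1013 under DMSO and 3559 under ATRA, against 496, 2127, 1365, 171 and 790. The groups compared alone gave 735 for ATRA in EVI1 cells and 92 and 269 for EVI1 under DMSO and ATRA. Without both DMSO arrays of number 3 the averaged count was 697 and that under DMSO 35. Without 1 array the counts ran from 71 to 632, 897 to 3224, 869 to 2100, 77 to 190 and 263 to 1962 in the same order, and 0 to 1 for the interaction.

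Without 1 array the differences ran from -0.23 to 0.4 for PTX3 under DMSO, -0.97 to -0.7 for PTX3 under ATRA, -0.89 to -0.54 for NOG under ATRA, -0.33 to 0.05 for the CCN3 interaction and -0.02 to 0.12 for METRNL averaged. In vector cells, ATRA differences also spanned 0 in such fits for METRN (-0.14 to 0.02), CCN1 (-0.14 to 0.08) and BMPR2 (-0.03 to 0.27), and reached it for NFKB1 (-0.15 to 0.0). Of 47 calls of list genes, 27 were lost in at least 1 of them. Signal limits PTX3, whose EVI1 ATRA values lay below the array lower quartiles.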

Other observations

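On the list of 42 tested secreted factors, LTBP1, which encodes a binding protein of latent TGF-beta, was lower in EVI1 cells by -2.39 ± 0.12 averaged over agents (limma adjusted p = 3.37e-07), by -2.69 ± 0.16 under DMSO (7.77e-06) and by -2.09 ± 0.16 under ATRA (5.7e-05), and all calls held without any 1 array. GDF15 differed by 2.73 ± 0.8 averaged over agents (limma adjusted p = 0.0526, with the block 0.000449). TNFSF10, which encodes the death ligand TRAIL, was lower by -0.64 ± 0.13 (limma adjusted p = 0.0103), also in 12 of 12 such fits. INHBA, the activin A subunit gene, was higher by 1.38 ± 0.37 (limma adjusted p = 0.0375) in a call kept in 4 of 12. ENG, the endoglin co-receptor of TGF-beta and BMP ligands, was higher by 0.58 ± 0.1 (limma adjusted p = 0.00459), kept in 12 of 12. The ENG call was lost when the mean of all its probe sets was used, so it depends on the probe set read. These genes were named after their values were seen.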
